A study of Mus musculus with 8 samples.

Results

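Type I interferon-stimulated genes are the transcripts that a cell raises after interferon binds its receptor. The 37 genes described here were chosen by their gene symbols, as a list of such genes, and were compared in all 8 libraries of a mouse retina RNA sequencing series. All 37 were found among the 54532 genes of the deposited tables, and all 37 were among the 17004 genes that passed the filter on low counts. They lie on 15 chromosomes. By role they are 3 transcription factor genes, 4 of the IFIT family, 5 of the ISG15 pathway and ubiquitin ligases, 5 of RNA sensors and helicases, 4 of double-stranded RNA enzymes and their relatives, 8 of antiviral effectors, 3 of ADP-ribosylation and 5 others.

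The 8 libraries were poly(A)-selected RNA from retina, the light-sensing nervous tissue of the eye. In 4 of them the label was sIVs, short in the series title for small intracellular vesicles, that is, membrane vesicles recovered from inside cells. The other 4 carried the label PBS, and served as controls. Replicates carried the numbers 1, 3, 4 and 5 in each group. The genotype, strain, age, dose, route, time after treatment and any injury, in either group, were not given in the sources used here. The series title names vesicle uptake and retinal neuroprotection as its subject, and the question put to the 37 genes was whether their levels in sIVs retinas differed from those in PBS retinas. Since the labels do not tie libraries to separate animals, each p-value reflects only how far these samples spread, and that spread may be technical.

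When type I interferon binds its receptor, the kinases Jak1 and Tyk2 phosphorylate STAT proteins, among them Stat2, which joins Irf9 in the complex called ISGF3. This complex binds the interferon-stimulated response element, a pair of GAAA units set a short gap apart, in the promoters of the induced genes. Many of the products detect or block viral RNA, and several, among them Irf7, Stat2 and the RNA sensors, feed back on the pathway itself. In retina, interferon-stimulated transcripts have been described in microglia, the resident macrophages, and in Müller glia, the radial support cells.

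The promoters shown here belong to the 3 members whose level ranged most between libraries, Bst2, Oasl2 and Ifit1, and the 2 whose level ranged least, Trim25 and Stat2. Each is the 250 bases before the listed start, 5′ to 3′ on the strand of the gene, from RefSeq on build GRCm38.p6. Capitals mark each match, on either strand, to the motif GAAA, any 2 bases, GAAA, which on the opposite strand reads TTTC, any 2 bases, TTTC. The windows are chr8:71537473-71537722, minus strand, for Bst2, chr5:114896684-114896933, plus strand, for Oasl2 and chr19:34640639-34640888, plus strand, for Ifit1. Those of the genes that ranged least are chr11:88999153-88999402, plus strand, for Trim25 and chr10:128270248-128270497, plus strand, for Stat2.
Bst2: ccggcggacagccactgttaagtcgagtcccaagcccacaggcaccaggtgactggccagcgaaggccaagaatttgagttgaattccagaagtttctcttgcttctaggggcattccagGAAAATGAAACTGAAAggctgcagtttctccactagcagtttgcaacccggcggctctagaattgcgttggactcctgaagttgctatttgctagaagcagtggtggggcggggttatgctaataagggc
Oasl2: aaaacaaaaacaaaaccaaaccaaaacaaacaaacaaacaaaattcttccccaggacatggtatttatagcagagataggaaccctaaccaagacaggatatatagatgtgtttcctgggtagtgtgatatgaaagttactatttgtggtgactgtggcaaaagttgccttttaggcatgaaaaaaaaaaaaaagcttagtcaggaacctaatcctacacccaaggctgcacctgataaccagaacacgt
Ifit1: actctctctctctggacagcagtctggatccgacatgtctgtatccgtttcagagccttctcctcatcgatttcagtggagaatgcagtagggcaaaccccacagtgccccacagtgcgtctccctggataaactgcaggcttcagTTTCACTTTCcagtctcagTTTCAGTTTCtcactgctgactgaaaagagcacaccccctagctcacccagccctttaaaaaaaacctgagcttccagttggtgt
Trim25: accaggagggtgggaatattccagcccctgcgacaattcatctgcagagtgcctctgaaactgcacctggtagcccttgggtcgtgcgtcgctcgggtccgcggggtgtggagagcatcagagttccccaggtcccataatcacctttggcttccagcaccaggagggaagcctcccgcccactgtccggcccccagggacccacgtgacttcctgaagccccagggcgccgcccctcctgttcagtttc
Stat2: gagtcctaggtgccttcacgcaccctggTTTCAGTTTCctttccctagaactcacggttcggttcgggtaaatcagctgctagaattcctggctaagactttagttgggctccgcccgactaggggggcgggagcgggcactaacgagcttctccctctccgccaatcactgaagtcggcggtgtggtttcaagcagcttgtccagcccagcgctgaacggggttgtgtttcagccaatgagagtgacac

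Bst2 held 2 overlapping matches, the first starting 130 bases before the start of the gene. Ifit1 held 2, at 104 and 85 bases before the start, and Stat2 held 1 at 222 bases. Oasl2 and Trim25 held none in these windows. Of the 37 members, 29 had an entry in the promoter table, which covers 250 bases before to 50 after each start, and 12 of these, or 41.4%, had at least 1 match. Of all 27025 genes in the table, 3.99% had a match. A longer form of the motif, which ends in CT and whose matches all overlap a match to the shorter form, was searched on both strands after the first and was present in 7 of the 29 members (24.1%) and in 0.303% of all genes. A match is a run of letters and is not a measured binding site.

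The libraries held 13915203 to 16009589 counts in the sIVs group and 13803958 to 16622259 in the PBS group. The 8 rod photoreceptor genes used to check the tissue were present in all 8 libraries and summed to 37180 to 60760 CPM in the sIVs libraries, against 31550 to 59640 CPM in the PBS libraries. CPM are counts scaled to a common, normalised library size. Among the libraries, PBS replicate 1 and sIVs replicate 4 stood apart. PBS replicate 1 was low in most of the genes described here. sIVs replicate 4 differed from the rest by gene length, with a median log2 CPM, relative to the mean of each gene over 8 libraries, of 0.46 over the 5669 tested genes of up to 2828 bases and -0.35 over the 5666 tested genes longer than 5376 bases. In the others these medians lay between -0.10 and 0.090. That library also held 60.2 CPM of the pigment epithelium transcript Rpe65, against at most 4.13 CPM elsewhere. In bulk tissue, fewer cells of a type and less RNA per cell cannot be told apart.

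Between sIVs and PBS retinas, none of the 37 interferon-stimulated genes changed past the threshold, while the same genes differed between single libraries by up to 163-fold with all 8 libraries, and by up to 43.8-fold without PBS replicate 1. The median log2 fold change, sIVs over PBS, was -0.18 over the 37 members and 0.0092 over all 17004 genes tested. The log2 fold change was positive in 12 members and negative in 25, and it was positive in 51.3% of all genes. In limma-voom, where libraries were weighted by quality, the median over the members was -0.92 and 0 were positive. In edgeR's quasi-likelihood test with Benjamini-Hochberg adjustment, 0 members had an adjusted p under 0.05, the lowest being 0.81, and 0 had an unadjusted p under 0.05. Over all genes 0.0% were called at the adjusted threshold and 1.5% had an unadjusted p under 0.05. DESeq2 also called 0 members, with 0 at an unadjusted p under 0.05, against 1.56% of the genes it tested. In limma-voom 0 members passed and 1, Cmpk2, had an unadjusted p under 0.05, against 2.68% of all genes. The groups overlapped in all 37 members, whereas they did not overlap in 2.01% of all tested genes, 1.08% with sIVs higher and 0.929% with sIVs lower.

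The width of the intervals shows how much difference the data leave possible. Standard errors of the log2 fold change ran from 0.17 for Trim25 to 1.01 for Oasl2, with a median of 0.64 over the members and 0.20 over the 15983 tested genes at a mean of at least 1 CPM. For Trim25 the 95% confidence interval was -0.39 to 0.30. That of Oasl2 was -2.05 to 1.91, so a difference of that size in either direction could not be told from none at this spread.

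**Figure D1:**
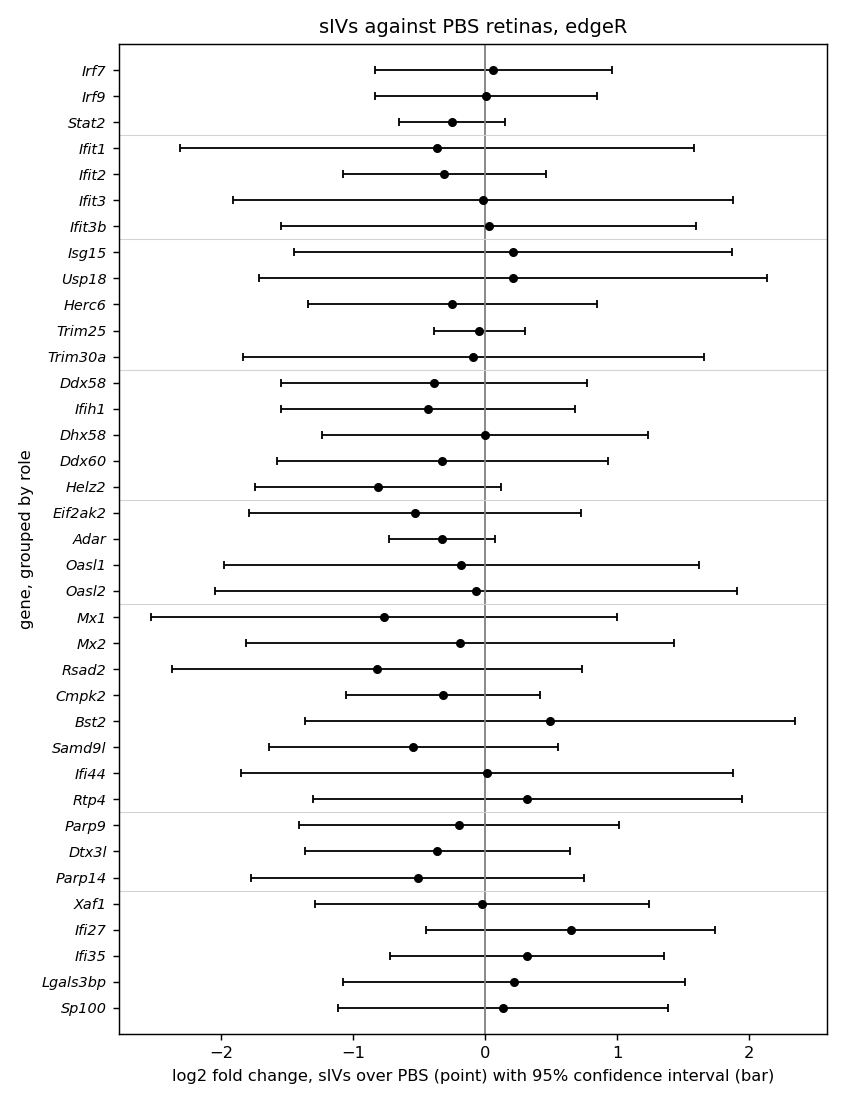
Log2 fold change of each of the 37 interferon-stimulated genes, sIVs over PBS, from edgeR (points) with 95% confidence intervals (bars), 4 libraries a group. All 37 intervals cross 0, from Trim25 with the narrowest interval to Oasl2 with a standard error of 1.01.

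The direction of the members rested on single libraries. Without PBS replicate 1 the median over the 37 genes was -0.48 and 3 were positive, and without sIVs replicate 4 it was -0.44 and 1 was positive. Without sIVs replicates 1 and 3 in turn the median was 0.14 and 0.0037, with 22 and 19 positive. Without PBS replicate 3 it was 0.12, with 21 positive, and without sIVs replicate 5 it was -0.40, with 6 positive. Leaving out PBS replicate 4 gave -0.16 with 15 positive, and leaving out PBS replicate 5 gave -0.021 with 18. With both PBS replicate 1 and sIVs replicate 4 left out, a setting chosen after the data were seen, it was -0.80, with 1 positive. In each of these settings 0 members passed. The sign of the log2 fold change turned on leaving out some single library in 21 of the 37 members, and the counts of signs by role rest on these values.

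Variation between libraries was large and shared. In 33 of 37 members the 3 lowest libraries of the 8 were PBS replicate 1, sIVs replicate 1 and sIVs replicate 3, and in 32 of these in that order from the lowest. The same 3 libraries were the lowest in 8.05% of all tested genes. PBS replicate 1 was the lowest of its group in 37 of 37 members, and sIVs replicate 1 the lowest of its group in 36 of 37. Over all tested genes these shares were 34.0% and 25.3%. The highest library was PBS replicate 3 for 20 members, sIVs replicate 4 for 12 and sIVs replicate 5 for 5. Over all tested genes these libraries were highest in 7.83%, 35.7% and 5.69%. The share of sIVs replicate 4 among the members, 32.4%, was thus near that of all genes. Averaged over the members as log2 CPM relative to the mean of each gene, the values were -1.36, -0.34, 0.83 and 0.87 in the sIVs libraries, against -2.34, 0.98, 0.56 and 0.80 in the PBS libraries. The sIVs libraries thus spread from low through intermediate to high, and the PBS libraries held 1 low and 3 high values. The 4 members whose 3 lowest libraries were others are Stat2, Trim25, Helz2 and Adar, and Irf7 had the same 3 libraries with sIVs replicate 1 the lowest.

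**Figure D2:**
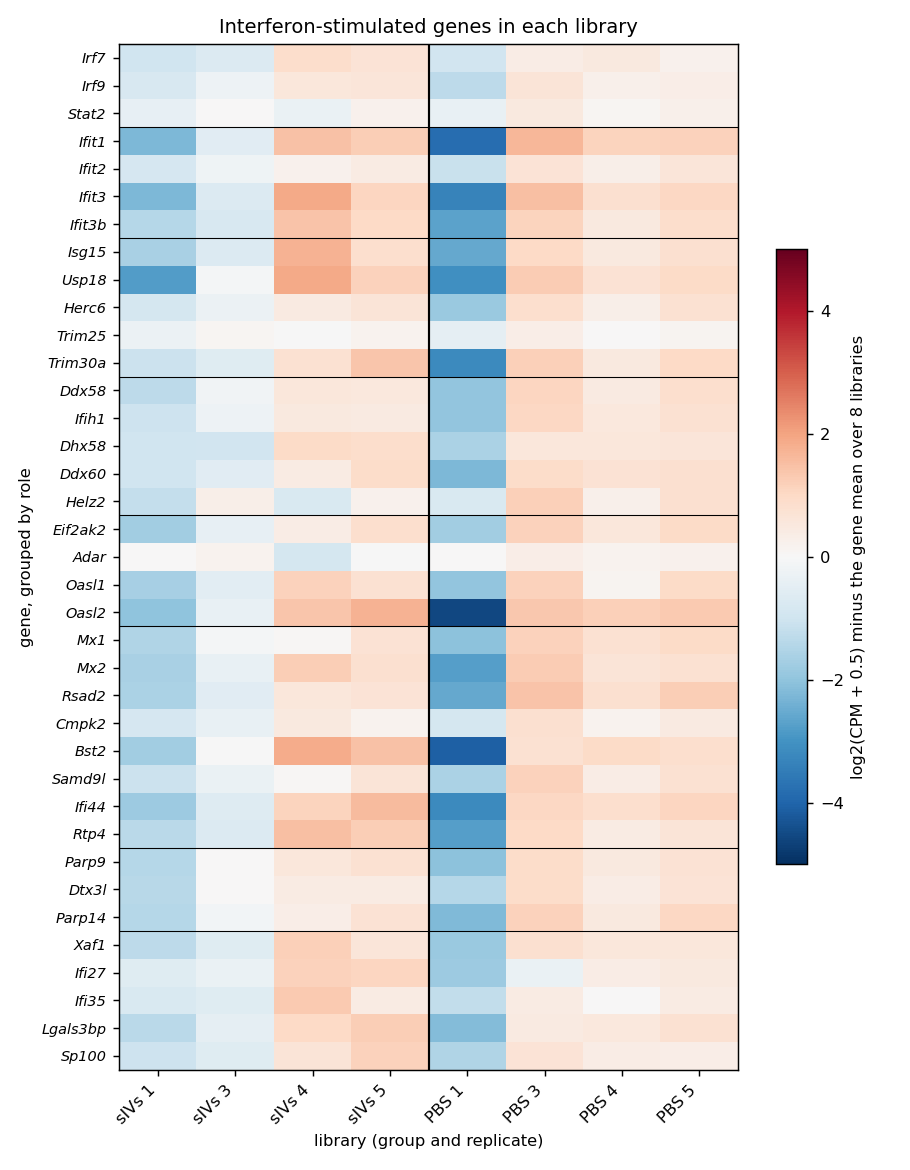
Heat map of the 37 interferon-stimulated genes (rows, grouped by role) in the 4 sIVs and 4 PBS libraries (columns), as log2(CPM + 0.5) minus the mean of each gene over 8 libraries. PBS replicate 1 is lowest in 33 of the 37 genes, and in 32 of these sIVs replicates 1 and 3 follow it.

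The highest library exceeded the lowest by a median of 9.59-fold over the members and 1.85-fold over the 15983 tested genes at a mean of at least 1 CPM. In this ratio a library with fewer than 3 counts was set at 3 counts. It was over 10-fold in 17 members (45.9%) and in 3.43% of all those genes, and over 4-fold in 30 members (81.1%) and 11.1% of the genes. These values depend on PBS replicate 1. Without it, a setting chosen after the data were seen, the median was 5.86-fold over the members and 1.78-fold over the genes, and 10 members (27.0%) and 2.5% of the genes were over 10-fold. For Oasl2 the ratio was then 14.6-fold, against 132-fold with all libraries, and the largest was that of Usp18 at 43.8-fold. The biological coefficient of variation, the spread between libraries of a group that counting does not account for, had a median of 0.62 over the members and 0.21 over the genes.

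**Figure D3:**
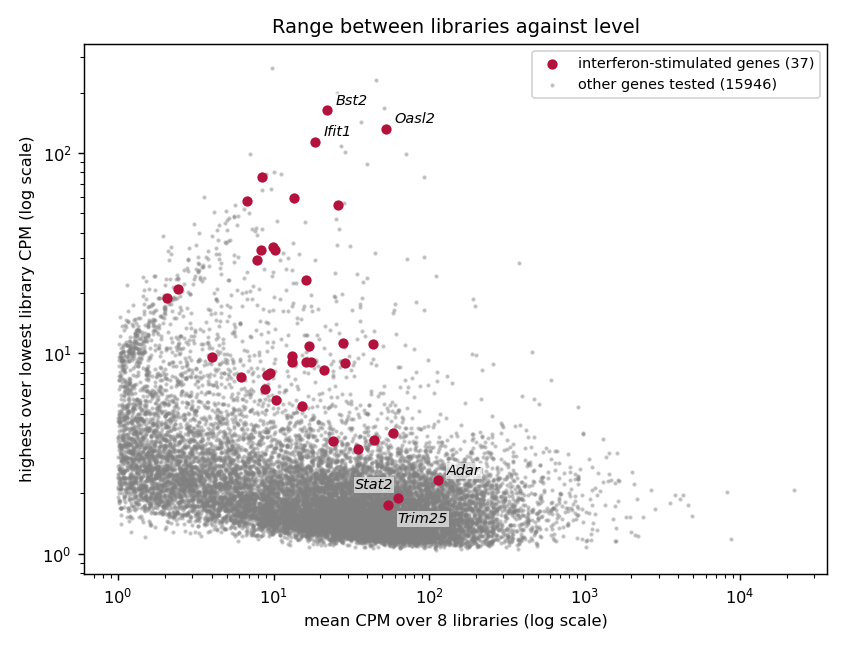
Highest over lowest library CPM (y, log scale) against mean CPM over the 8 libraries (x, log scale) for 15983 genes, with the 37 interferon-stimulated genes in red. Members range from 1.74-fold for Trim25 to 163-fold for Bst2, with a median of 9.59-fold, which is 5.86-fold without PBS replicate 1.

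The transcription factors, 2 positive and 1 negative by log2 fold change, ranged less between libraries than most other members. Irf7, which amplifies interferon transcription (chromosome 7, 141262706 to 141266481, mm10), had 19.5, 24.2, 72.2 and 63.9 CPM in the sIVs libraries, against 19.7, 50.5, 55.6 and 46.3 CPM in the PBS libraries, in the order of replicates 1, 3, 4 and 5, which is used throughout. Replicate 1 of both groups and sIVs replicate 3 were low, and the groups averaged 44.9 ± 26.9 CPM in sIVs retinas and 43.0 ± 16.0 CPM in PBS retinas (SD, n = 4 each). For Irf7 the log2 fold change was 0.062 ± 0.46 (SE). Stat2, a part of ISGF3 (chromosome 10, 128270559 to 128292849), had 46.0, 63.2, 49.6 and 72.4 CPM in the sIVs libraries, against 47.7, 86.9, 67.0 and 73.5 CPM in the PBS libraries. Its groups overlapped, its log2 fold change was -0.25 ± 0.20 (SE), and PBS replicate 3 was the highest library. Irf9, the DNA-binding part of ISGF3, ranged from 20.9 to 83.6 CPM. Per listed gene length the 3 were alike in level, at mean FPKM (fragments scaled to gene length and library total) of 11.4 for Irf7, 10.7 for Irf9 and 10.5 for Stat2. The listed lengths are 3776, 5386 and 5926 bases, against 2237, 2959 and 4397 bases for the longest coding transcripts. The likeness is therefore tied to the listed lengths.

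The IFIT genes, whose products bind foreign RNA, lie in a cluster on chromosome 19 in the order Ifit2, Ifit3, Ifit3b and Ifit1, with gaps of 7111, 19238 and 27469 bases. Their log2 fold changes were positive in 1 and negative in 3. Ifit1 had 1.86, 6.96, 30.0 and 25.7 CPM in the sIVs libraries, against 0.302, 34.5, 23.8 and 24.4 CPM in the PBS libraries. Its lowest library, PBS replicate 1, stood 114-fold below the highest, PBS replicate 3, which has the same label. Without PBS replicate 1 the ratio of highest to lowest library was 18.5-fold. Between the groups the log2 fold change of Ifit1 was -0.36 ± 0.99 (SE). Ifit3, the member of the family at the highest level per length (14.6 FPKM), had 2.87, 9.37, 58.0 and 33.3 CPM in the sIVs libraries, against 1.06, 44.2, 27.0 and 32.4 CPM in the PBS libraries. It was highest in sIVs replicate 4, with a log2 fold change of -0.018 ± 0.97 (SE). Ifit2 had 12.2, 18.8, 25.5 and 29.6 CPM in the sIVs libraries, against 9.83, 35.8, 27.4 and 33.6 CPM in the PBS libraries. Its level in the low libraries was nearer to that in the others, a 3.64-fold range, and its log2 fold change was -0.31 ± 0.39 (SE). Ifit3b ranged from 1.36 to 31.6 CPM. The longest coding transcripts of Ifit3 and Ifit3b shared 41.1% and 35.7% of their 75-base words with each other, so reads may be split between them and their separate levels are uncertain.

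In the ISG15 pathway and the ubiquitin ligases, 2 log2 fold changes were positive and 3 negative. The ubiquitin-like modifier Isg15 itself (chromosome 4, 156199424 to 156200818) had 1.94, 4.19, 24.7 and 12.9 CPM in the sIVs libraries, against 0.756, 14.3, 10.2 and 12.5 CPM in the PBS libraries. Usp18, the protease that removes ISG15 and dampens signalling at the receptor, had 0.717, 7.39, 31.4 and 18.5 CPM in the sIVs libraries, against 0.529, 20.0, 13.5 and 15.9 CPM in the PBS libraries. Both were lowest in replicate 1 of each group and highest in sIVs replicate 4. Herc6, the ISG15 ligase in mouse, had 4.23, 6.53, 11.1 and 13.1 CPM in the sIVs libraries, against 1.89, 15.1, 10.2 and 14.3 CPM in the PBS libraries, with a log2 fold change of -0.25 ± 0.56 (SE) and overlapping groups. Herc6 shares 22.4% of its 75-base words with Gm45193, a gene that overlaps it, so its level is uncertain. Trim25, a ubiquitin ligase that acts on the sensor RIG-I, had 44.0, 58.0, 52.9 and 61.0 CPM in the sIVs libraries, against 39.6, 69.1, 55.1 and 58.8 CPM in the PBS libraries. It was the steadiest of the 37, with 54.0 ± 7.43 CPM in sIVs retinas and 55.6 ± 12.2 CPM in PBS retinas (SD, n = 4 each). Trim30a had 1.94, 2.91, 8.38 and 13.1 CPM in the sIVs libraries, against 0.0756, 11.3, 6.72 and 9.87 CPM in the PBS libraries, with 1 count in PBS replicate 1. The log2 fold changes were 0.21 ± 0.85 (SE) for Isg15, 0.21 ± 0.98 (SE) for Usp18, -0.045 ± 0.17 (SE) for Trim25 and -0.090 ± 0.89 (SE) for Trim30a, each within the spread between libraries.

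The RNA sensors had negative log2 fold changes in 5 of 5 members, with a median of -0.39 and edgeR adjusted p of at least 0.81, although that of Dhx58 was -0.0016. Ddx58, which encodes RIG-I and was the highest of them per length (3.99 FPKM), had 9.17, 21.0, 35.4 and 34.0 CPM in the sIVs libraries, against 5.59, 50.2, 32.4 and 42.0 CPM in the PBS libraries. PBS replicate 3 was its highest library and PBS replicate 1 its lowest, and the log2 fold change was -0.39 ± 0.59 (SE). Helz2, a helicase and transcriptional coactivator, had 3.58, 11.1, 4.98 and 10.4 CPM in the sIVs libraries, against 4.99, 21.0, 10.7 and 15.8 CPM in the PBS libraries, and its p was the smallest of the 37. PBS replicate 1 lay within the range of the sIVs libraries, and the means were 7.50 ± 3.78 CPM in sIVs retinas and 13.1 ± 6.87 CPM in PBS retinas (SD, n = 4 each). Its log2 fold change was -0.81 ± 0.48 (SE), with an unadjusted p of 0.122 and an edgeR adjusted p of 0.810. It ranged from -1.08 without PBS replicate 1 to -0.49 without PBS replicate 3. Ifih1, the sensor MDA5, ranged from 3.10 to 28.1 CPM, Dhx58, their regulator, from 1.36 to 10.4 CPM and the helicase gene Ddx60 from 2.42 to 26.3 CPM.

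All 4 genes of double-stranded RNA enzymes and their relatives had negative log2 fold changes, with a median of -0.25. Adar, which edits adenosine to inosine, had 112, 124, 59.5 and 109 CPM in the sIVs libraries, against 114, 138, 126 and 129 CPM in the PBS libraries. It was the only member that was lowest in sIVs replicate 4, and PBS replicate 1 was the lowest of its group, as in the other members. Its log2 fold change was -0.33 ± 0.20 (SE) (edgeR adjusted p = 0.810), and it was -0.14 without that library. Oasl2, a relative of the oligoadenylate synthetases, had 6.88, 22.4, 76.6 and 100.1 CPM in the sIVs libraries, against 0.756, 75.6, 67.3 and 72.5 CPM in the PBS libraries. PBS replicate 1 stood far below its group, and sIVs replicates 1 and 3 lay between it and the rest. Its group means were 51.5 ± 44.1 CPM in sIVs retinas and 54.0 ± 35.7 CPM in PBS retinas (SD, n = 4 each), and its log2 fold change was -0.070 ± 1.01 (SE). Eif2ak2, the kinase PKR, ranged from 4.61 to 37.8 CPM. Oasl1, which lies 11005 bases from Oasl2 and restrains Irf7 translation in mouse, ranged from 0.0756 CPM, which is 1 count in PBS replicate 1, to 4.52 CPM.

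The antiviral effectors, 3 positive and 5 negative, included several of the members that ranged most. Bst2, or tetherin, which holds budding virus at the cell surface (chromosome 8, 71534255 to 71537456), had 3.58, 13.1, 49.4 and 36.9 CPM in the sIVs libraries, against 0.302, 22.5, 26.1 and 24.1 CPM in the PBS libraries. It was the highest of all 37 per length, at a mean of 23.8 FPKM, and had 4 counts in PBS replicate 1. The log2 fold change of Bst2 was 0.49 ± 0.95 (SE), and it was 0.083 without PBS replicate 1 and -0.040 without sIVs replicate 4. Ifi44 had 1.15, 3.27, 12.1 and 17.3 CPM in the sIVs libraries, against 0.151, 11.6, 9.88 and 11.7 CPM in the PBS libraries, with 2 counts in PBS replicate 1 and a log2 fold change of 0.012 ± 0.95 (SE). Rsad2 and Cmpk2 are neighbours on chromosome 12 on opposite strands, 12751 bases apart. Rsad2, which encodes viperin, had 1.505, 3.55, 8.38 and 9.07 CPM in the sIVs libraries, against 0.529, 15.4, 10.1 and 13.7 CPM in the PBS libraries. Its log2 fold change was -0.82 ± 0.79 (SE), the most negative of the 37 (edgeR adjusted p = 0.810). Cmpk2, a mitochondrial nucleotide kinase gene, had 17.9, 24.6, 45.3 and 36.3 CPM in the sIVs libraries, against 17.2, 57.1, 36.4 and 44.1 CPM in the PBS libraries, a range of 3.33-fold against 29.2-fold for Rsad2. The log2 fold change of Cmpk2 was -0.32 ± 0.38 (SE), and it was -0.78 in limma-voom.

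The GTPase genes Mx1 and Mx2, on chromosome 16 and 72400 bases apart, reached 4.05 and 14.9 CPM at most. Mx1 had 0 counts in PBS replicate 1, where 3 counts would be 0.227 CPM. Samd9l and Rtp4 ranged from 2.27 to 17.7 and from 0.605 to 20.4 CPM. Rtp4 shares 12.4% of its 75-base words with Gm45338, which overlaps it.

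**Figure D4:**
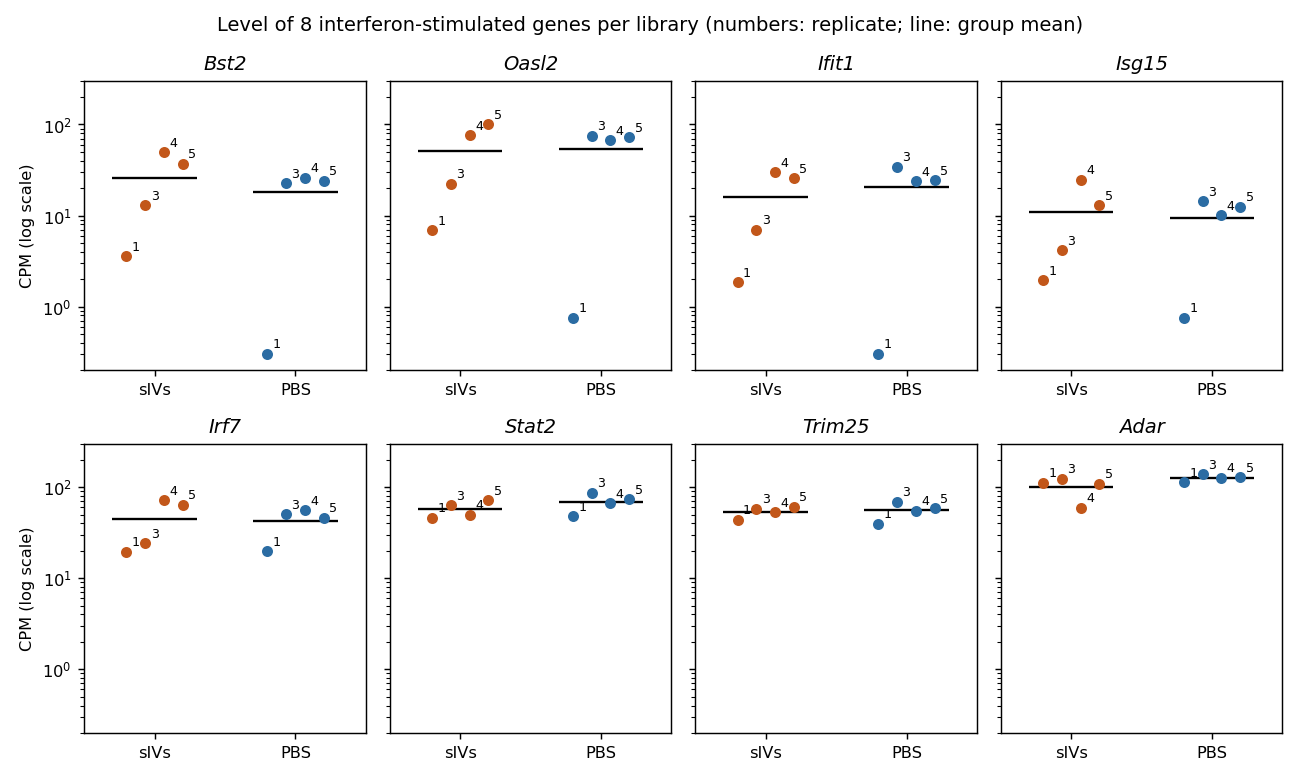
CPM (log scale) of 8 interferon-stimulated genes in each sIVs (orange) and PBS (blue) library, with replicate numbers beside the points and group means as lines. Replicate 1 of both groups is low for Bst2, Oasl2, Ifit1, Isg15 and Irf7, while Stat2, Trim25 and Adar range less than 2.4-fold between the 8 libraries.

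The 3 genes of ADP-ribosylation had negative log2 fold changes, with a median of -0.36. Parp9 and Dtx3l encode a pair of proteins that act together in ADP-ribosylation and ubiquitylation, and they overlap head to head by 682 bases on opposite strands of chromosome 16. Parp9 had 4.87, 14.1, 21.1 and 24.4 CPM in the sIVs libraries, against 3.02, 27.4, 20.0 and 23.5 CPM in the PBS libraries. The levels in sIVs replicates 4 and 5 lay within the range of PBS replicates 3 to 5, and the log2 fold change was -0.20 ± 0.62 (SE). Parp14, a further ADP-ribosyltransferase gene 54966 bases from Dtx3l, had 7.88, 19.9, 28.1 and 37.1 CPM in the sIVs libraries, against 4.46, 50.5, 31.2 and 46.3 CPM in the PBS libraries, with a log2 fold change of -0.51 ± 0.65 (SE). Dtx3l ranged from 4.61 to 25.0 CPM. All 3 were lowest in PBS replicate 1 and highest in PBS replicate 3. In all, 13 of the 37 members overlap a gene on the other strand. The libraries were strand-marked, but the strand setting of the counting was not given in the sources used here. Whether reads from the overlapping stretches were assigned by strand is therefore not known.

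In the remaining group, 4 of 5 genes had a positive log2 fold change. Lgals3bp, a secreted galectin-binding protein gene, had 13.2, 24.7, 68.5 and 80.2 CPM in the sIVs libraries, against 7.18, 46.5, 49.3 and 57.4 CPM in the PBS libraries. Replicates 4 and 5 of the sIVs group were its highest libraries, and its log2 fold change was 0.22 ± 0.66 (SE). Ifi27, a mitochondrial protein gene, had 7.02, 8.59, 25.1 and 23.8 CPM in the sIVs libraries, against 2.80, 8.62, 14.2 and 15.5 CPM in the PBS libraries. Its log2 fold change was 0.65 ± 0.56 (SE), the most positive of the 37 (edgeR adjusted p = 0.810), and it ranged from 0.33 to 0.91 with each library left out in turn, but it was -0.0055 in limma-voom. PBS replicate 3, the highest library for most members, was at 8.62 CPM for Ifi27, near the 8.59 CPM of sIVs replicate 3. Xaf1, Ifi35 and Sp100 ranged from 2.57 to 25.0, from 2.95 to 19.6 and from 0.832 to 7.97 CPM. The 15 members given only by their range had log2 fold changes of -0.77 to 0.32 and edgeR adjusted p of 0.81 to 0.999.

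The length dependence of sIVs replicate 4 was also present within the members. The 10 members of up to 2828 bases were all higher in sIVs replicate 4 than in sIVs replicate 5, by a median of 0.43 on the log2 scale, against 0.38 over all genes of that length. Of the 15 members longer than 5376 bases, 2 were higher in sIVs replicate 4, with a median difference of -0.40, against -0.33 over all genes of that length. The order of these 2 libraries for a member therefore moved with its length. The part of gene length in the comparison of the groups was not tested beyond leaving that library out.

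Transcripts of the interferons themselves were almost undetected. Of 21 ligand genes, 18 had no count in any library, among them Ifnb1, Ifng and 12 Ifna genes, and 3 had a single count each over all 8 libraries, Ifna16, Ifnk and Ifnz. A count of 0 allows 0.174 to 0.227 CPM per library, the level of 3 counts, and covers counting error only. The ligands were therefore not detectable at this depth, also in the libraries where their target genes were high.

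The receptors and kinases were steady beside their targets. Ifnar1, a chain of the type I receptor, had 78.9, 78.8, 61.0 and 72.7 CPM in the sIVs libraries, against 75.4, 76.7, 79.3 and 81.4 CPM in the PBS libraries. Jak1 had 175, 159.5, 132 and 148 CPM in the sIVs libraries, against 172, 151, 157 and 158 CPM in the PBS libraries. The 6 receptor genes summed to 139 to 149 CPM in the sIVs libraries, against 132 to 153 CPM in the PBS libraries, while the 37 members summed to 399.6 to 1151 CPM in the sIVs libraries, against 330.4 to 1230 CPM in the PBS libraries. None of 6 receptor genes passed, with log2 fold changes above 0 in 3 and below 0 in 3, of which 0.24 ± 0.17 (SE) for Ifngr2 and 0.29 ± 0.27 (SE) for Il10rb had the smallest p. Of the 5 genes of receptor kinases and other STATs, 0 passed, 2 were positive and 3 negative, with -0.16 ± 0.12 (SE) for Jak2.

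Of 15 genes of nucleic acid sensors and adaptors, 13 were tested and 0 passed, with 5 positive and 8 negative. Ticam1, the adaptor of Tlr3, had 3.80, 5.61, 5.30 and 5.36 CPM in the sIVs libraries, against 6.58, 8.10, 5.38 and 6.62 CPM in the PBS libraries, with a log2 fold change of -0.41 ± 0.20 (SE) (edgeR adjusted p = 0.810). Irf3, the transcription factor that starts interferon transcription, had 56.1, 50.9, 77.5 and 51.7 CPM in the sIVs libraries, against 58.5, 51.7, 48.9 and 40.6 CPM in the PBS libraries, with sIVs replicate 4 the highest, and a log2 fold change of 0.24 ± 0.17 (SE). Of 13 genes of inhibitors and nucleic acid clearance, 12 were tested and 0 passed, with 9 positive and 3 negative. Samhd1, which degrades deoxynucleotides, had 42.4, 47.2, 42.4 and 43.5 CPM in the sIVs libraries, against 49.7, 47.2, 47.8 and 47.7 CPM in the PBS libraries. The highest sIVs library was at 47.16 CPM and the lowest PBS library at 47.22 CPM. Samhd1 was the only one of the 92 pathway genes tested whose groups did not overlap in either direction. Over all tested genes the share was 2.01% in either direction and 0.929% with sIVs lower. The log2 fold change of Samhd1 was -0.13 ± 0.087 (SE) (edgeR adjusted p = 0.810). Pias4 had a log2 fold change of 0.30 ± 0.19 (SE), and Ptpn2, a phosphatase gene, was the highest of the list per length at 17.0 FPKM.

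Most other induced genes tested were also lowest in PBS replicate 1. Of 40 further interferon-stimulated genes, 32 were tested and 0 passed, with 13 positive and 19 negative, and PBS replicate 1 was the lowest library in 24 of the 32. Over all tested genes PBS replicate 1 was lowest in 18.5%. Rnf213, a large ubiquitin ligase gene, had 32.9, 56.8, 41.3 and 59.1 CPM in the sIVs libraries, against 28.9, 124, 71.6 and 100.3 CPM in the PBS libraries, with a log2 fold change of -0.77 ± 0.39 (SE) (edgeR adjusted p = 0.810). Znfx1 had a log2 fold change of -0.27 ± 0.17 (SE), and Tdrd7, at 81.4 FPKM the highest of the list per length, had 432, 303, 354 and 285 CPM in the sIVs libraries, against 421, 257, 323 and 255 CPM in the PBS libraries, highest in replicate 1 of each group. Of 27 genes that respond to interferon gamma, 24 were tested and 0 passed, with 4 positive and 20 negative and a median of -0.24, and PBS replicate 1 was lowest in 21 of 24. Iigp1 and Cxcl10 had log2 fold changes of -0.74 ± 0.57 (SE) and -1.18 ± 0.92 (SE), and Tapbp, of peptide loading, had 70.9, 83.7, 139 and 132 CPM in the sIVs libraries, against 53.9, 103, 105 and 115 CPM in the PBS libraries. Over the 127 pathway genes, 92 were tested and 0 passed, also by DESeq2 and limma-voom and with 0 at an unadjusted p under 0.05 in edgeR.

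Markers of other cells and of glial reaction also varied between libraries. The means of the gliosis and microglia lists were lowest in replicate 1 of both groups, as for the members. They were next lowest in PBS replicate 4, where the members were high, and not in sIVs replicate 3. As mean log2 CPM relative to the mean of each gene, the 12 reactive gliosis genes, which include Stat3 and Socs3 of the pathway lists, stood at -0.92, 0.26, 0.66 and 0.56 in the sIVs libraries, against -2.08, 0.76, 0.018 and 0.73 in the PBS libraries. Summed, they were at 419 to 1133 CPM in the sIVs libraries, against 219.5 to 1048 CPM in the PBS libraries, and PBS replicate 1 was lowest in 11 of 12. The 13 microglia and macrophage genes stood at -0.37, -0.029, 0.84 and 0.84 in the sIVs libraries, against -1.92, 0.23, -0.10 and 0.51 in the PBS libraries. Their summed level was 172 to 394 CPM in the sIVs libraries, against 62.6 to 285 CPM in the PBS libraries, with PBS replicate 1 lowest in 13 of 13. Of the 13, 0 passed and 13 were positive, the median log2 fold change being 0.57 with all libraries and 0.29 without PBS replicate 1. The 8 rod genes stood at 0.44, -0.094, 0.14 and -0.19 in the sIVs libraries, against 0.41, -0.42, 0.035 and -0.33 in the PBS libraries. Their mean was highest in replicate 1 of both groups, where the members were low. As for the members, it was negative in sIVs replicate 3 and positive in sIVs replicate 4 and PBS replicate 4. The mean of the 8 genes of Müller glia at rest lay between -0.43 and 0.25 in all libraries, but single genes ranged more. Apoe and Clu were lowest in PBS replicate 1, at 384 and 440 CPM, and highest in sIVs replicate 4, at 2063 and 1742 CPM. Slc1a3 and Kcnj10 were lowest in sIVs replicate 4. The 14 markers of infiltrating leukocytes summed to 5.73 to 17.7 CPM in the sIVs libraries, against 2.80 to 12.6 CPM in the PBS libraries. The T cell gene Cd3e had 0 counts in every library and Cd3d at most 0.0579 CPM. Ptprc ran from 0.756 CPM in PBS replicate 1 to 6.67 CPM in sIVs replicate 5, and Ccr2 from 0 to 3.99 CPM in the same libraries. The mean of the 4 tested was -0.59, -0.031, -0.125 and 1.06 in the sIVs libraries, against -1.66, 0.67, -0.18 and 0.85 in the PBS libraries. It was lowest in replicate 1 of both groups, as for the members, and PBS replicate 1 was lowest in 3 of the 4. Of 10 pigment epithelium and melanin genes 8 were tested, and their mean on the same scale was highest in sIVs replicate 4. It was 0.015, -1.37, 2.28 and 0.50 in the sIVs libraries, against -1.38, 0.18, -0.84 and 0.61 in the PBS libraries. Rpe65, Rgr, Rdh5, Lrat and Ttr were highest in sIVs replicate 4. Trpm1 was lowest there, Pmel was highest in PBS replicate 5 and Tyrp1 in sIVs replicate 5. The median log2 fold change of the 8 was 1.39, and it was -0.0095 without sIVs replicate 4, with 0 past the threshold. Leaving out Trpm1, which bipolar cells also express and which made up most of the sum elsewhere, the other 9 of the 10 summed to 38.3, 11.1, 427 and 55.8 CPM in the sIVs libraries, against 10.8, 41.7, 15.2 and 51.4 CPM in the PBS libraries. The 9 endothelial genes summed to 481 to 639.9 CPM in the sIVs libraries, against 434 to 764 CPM in the PBS libraries and the 5 erythrocyte genes to 9.37 to 26.7 CPM in the sIVs libraries, against 5.24 to 9.14 CPM in the PBS libraries. The part of these cell types in the levels of the interferon-stimulated genes was not tested.

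**Figure D5:**
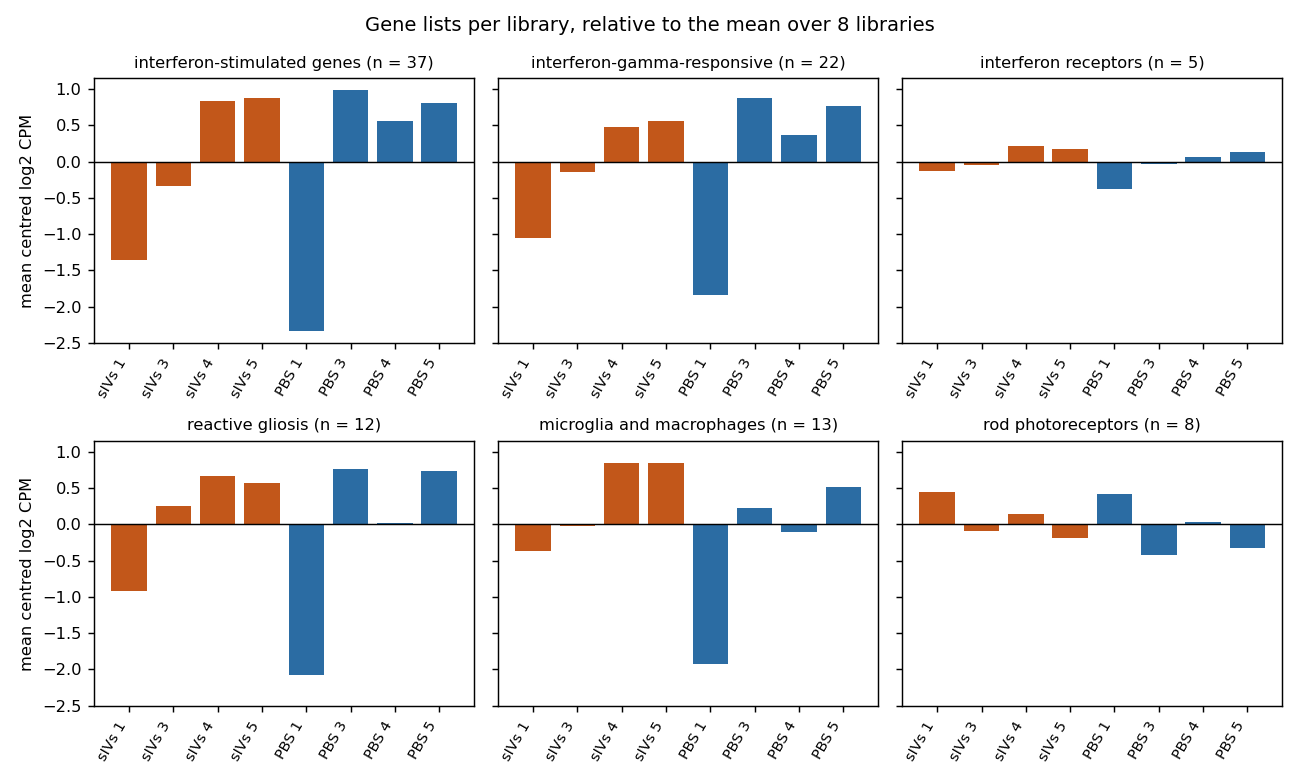
Mean log2 CPM of 6 gene lists in each library, each gene taken relative to its mean over the 8 libraries (bars; sIVs orange, PBS blue; n, genes at a mean of at least 1 CPM). The interferon-stimulated genes span -2.34 in PBS replicate 1 to 0.98 in PBS replicate 3, the interferon receptors -0.38 to 0.21.

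The genes whose levels most resembled the members were found by the root mean square difference, over the 8 libraries, between the centred log2 CPM of each of 13752 other protein-coding genes and the mean of the 37 members. The 10 nearest were Tor3a, Hk3, Tap1, Phf11d, S100a11, Ms4a6b, Igtp, Zc3hav1, Gatm and Irgm1, at differences of 0.186 to 0.25, against a median of 1.17 over all candidates and 0.48 for the members themselves. Of the 10, Tor3a, Phf11d and Zc3hav1 were on the list of further interferon-stimulated genes and Tap1, Igtp and Irgm1 on the interferon gamma list. The hexokinase gene Hk3, S100a11, Ms4a6b and Gatm, an enzyme gene of creatine synthesis, were on none of the lists. Tor3a had 6.66, 14.2, 33.9 and 29.2 CPM in the sIVs libraries, against 3.85, 38.4, 20.5 and 37.4 CPM in the PBS libraries. Gatm had 8.31, 22.2, 36.3 and 43.5 CPM in the sIVs libraries, against 4.76, 33.4, 24.9 and 39.7 CPM in the PBS libraries, low in the same 3 libraries as the members. The likeness is a description over 8 libraries, which share depth and tissue.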

How the data were processed

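Poly(A)-selected RNA from mouse retina was measured in 8 libraries, per the labels' protocols, which describe strand-marked libraries read as 150 bp pairs. What the authors deposited is a table of raw counts for 54532 Ensembl genes, as whole numbers, with positions on mm10, per the submitters' processing notes. The authors also deposited FPKM, which in each library equalled the count divided by listed length and total times a constant of 0.943 to 1.03. The aligner, counter and strand setting were not given in the sources used here. All 37 members had the same start and end in GENCODE M21.

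Sample titles gave the groups and the replicate numbers. Genes kept by filterByExpr (17004) were scaled by TMM factors and tested two-sided in edgeR 4.0.16 under R 4.3.3 by quasi-likelihood F tests, with group as the only term, Benjamini-Hochberg adjustment over all tested genes and a threshold of 0.05. The standard error is the absolute log2 fold change over the square root of F, and 95% confidence intervals use it, so both are approximate. Log2 CPM used a prior count of 2. Alternatives used DESeq2 1.42.0, limma 3.58.1 on voom values with quality weights and on log2(FPKM + 1) and log2(FPKM + 0.1), RLE factors, no filter, a replicate block and left-out libraries. The edgeR test was checked on simulated counts, with 50 changed genes at each fold. Of these, edgeR recovered 4% at 1.5-fold, 32% at 2-fold, 68% at 3-fold and 88% at 4-fold. The changed genes were drawn from all tested genes above a mean of 1 CPM. The median biological coefficient of variation was 0.21 over genes at that level and 0.62 over the members. Counts were drawn separately for each gene, so shifts that many genes share in a library, as the members do, were not simulated. Recovery among the members alone was not measured.

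The members and the gene lists were chosen with earlier results of these data known. Members with all library values are, per role, the one of highest mean FPKM and of smallest p, and the 6 with the largest and the 6 with the smallest range between libraries. Pathway genes named are, per list, the 2 of smallest p and the 1 of highest mean FPKM. The other 15 members are given by their range. Some genes that the rule names are not reported here. Limits for counts of 0 cover counting error only.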

Additional observations from a re-analysis of the deposited data

Results flagged for a closer look

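Within the PBS group, replicate 1 lay far below the other 3 libraries by Dixon's criterion for 4 samples. This held for the mean profile of the 37 members, at -2.34 in PBS replicate 1, against 0.56 to 0.98 in the other PBS libraries, as log2 CPM relative to the mean of each gene. Dhx58 stood at 1.36 CPM there, against 7.70 to 7.94 CPM in the other 3. Ddx60 stood at 2.42 CPM, against 22.5 to 26.3 CPM. For Oasl2 the values were 0.756 CPM and 67.3 to 75.6 CPM. Bst2 had 0.302 CPM, against 22.5 to 26.1 CPM. Ifi44 had 0.151 CPM, against 9.88 to 11.7 CPM. In all, 76 groups of 4 values were examined, chance alone marks about 1 in 20, and the members share the same libraries, so these are not independent. No value of the sIVs group was marked.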

How the results depend on the processing

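The count of members past the threshold was 0 in every setting tried, as was that of all genes and of pathway genes. At an unadjusted p under 0.05 there were 2 members without PBS replicate 1, 2 with the replicate block, 7 without PBS replicate 1 and sIVs replicate 4, and 3 without replicate 1 of both groups, the last pair of settings being chosen after the data were seen. The shares of all genes in these settings are not given here, so the counts are not read as a result about the members. The library medians of the members had a pooled SD of 1.26 on the log2 scale. That is a spread between single libraries and gives no measure of how stable a median log2 fold change is. The median log2 fold change over the members was -0.18 in edgeR with all 8 libraries. It was -0.19 with RLE factors, -0.18 with no filter, -0.18 with DESeq2, -0.088 with log2(FPKM + 1), -0.056 with log2(FPKM + 0.1) and -0.92 with limma-voom. The last setting gave sIVs replicate 4 a weight of 0.0913 and PBS replicate 1 one of 0.637, against 0.844 to 2.74 for the rest, and left 0 members positive. Leaving out 1 library gave 1 to 22 positive members, and leaving out PBS replicate 1 and sIVs replicate 4 together gave 1, against 12 with all 8. The cause of the other changes was not tested. With the replicate block the median was -0.055, with 13 positive and 0 past the threshold. Deviations from the group means correlated by 0.596, 0.0246, 0.227 and 0.514 between libraries numbered 1, 3, 4 and 5. Replicates 1, 4 and 5 matched their own number best in both directions, and replicate 3 did not. The labels do not say that the numbers mark pairs, so the block was kept as an alternative only. What a shared number stands for was not tested. Signs turned under the block to -0.046 for Irf7, 0.14 for Trim30a and 0.16 for Oasl2. Under limma-voom they turned to -0.70 for Irf7, -0.50 for Irf9, -1.15 for Ifit3b, -1.15 for Isg15, -1.38 for Usp18 and -0.54 for Bst2. They also turned there to -1.14 for Ifi44, -0.90 for Rtp4, -0.0055 for Ifi27, -0.59 for Ifi35, -0.63 for Lgals3bp and -0.77 for Sp100. With log2(FPKM + 1) they turned to -0.054 for Irf7 and -0.038 for Ifi44. With log2(FPKM + 0.1) they turned to -0.067 for Irf7, 0.00060 for Ifit1, 0.045 for Ifit3, 0.28 for Trim30a, 0.33 for Oasl2 and 0.034 for Mx2. With RLE factors and DESeq2, Irf9 stood at -0.0019 and -0.00089. In the absence of PBS replicate 1 and of sIVs replicate 4 they turned to -0.50 for Irf7, -0.45 for Irf9, -0.89 for Ifit3b, -0.95 for Isg15, -0.89 for Usp18 and -0.44 for Bst2. The same setting gave -0.61 for Ifi44, -0.55 for Rtp4, -0.55 for Ifi35, -0.37 for Lgals3bp and -0.34 for Sp100. Without replicate 1 of both groups they turned to -0.057 for Irf9, -0.030 for Ifit3b and -0.027 for Ifi44, and the median was -0.20. Leaving out each library in turn, log2 fold changes ran from -0.27 to 0.31 for Irf7, -0.28 to 0.22 for Irf9, -0.86 to 0.0016 for Ifit1, -0.79 to 0.35 for Ifit3, -0.52 to 0.34 for Ifit3b, -0.58 to 0.55 for Isg15, -0.50 to 0.60 for Usp18 and -0.18 to 0.074 for Trim25. They ran from -0.67 to 0.24 for Trim30a, -0.38 to 0.27 for Dhx58, -0.75 to 0.21 for Oasl1, -0.62 to 0.29 for Oasl2, -0.67 to 0.18 for Mx2, -0.040 to 0.85 for Bst2, -0.60 to 0.37 for Ifi44 and -0.17 to 0.66 for Rtp4. The others whose sign changed ran from -0.55 to 0.10 for Parp9, -0.56 to 0.27 for Xaf1, -0.29 to 0.55 for Ifi35, -0.18 to 0.52 for Lgals3bp and -0.38 to 0.42 for Sp100. Depth limits the ligands and, in PBS replicate 1, Mx1, Trim30a, Oasl1 and Ifi44, which had under 3 counts there.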

Other observations

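Oas1a and Oas1g on chromosome 5, named after their values were seen, departed from the order of libraries of the 37 interferon-stimulated genes. Oas1a, an oligoadenylate synthetase gene, had 0.143, 0, 0 and 0 CPM in the sIVs libraries, against 0, 3.41, 4.91 and 0 CPM in the PBS libraries. Oas1g had 0.0717, 0, 0 and 0 CPM in the sIVs libraries, against 0, 0.694, 1.34 and 0 CPM in the PBS libraries. Their relative Oas1b had 1.65, 4.33, 4.58 and 5.22 CPM in the sIVs libraries, against 0.605, 8.28, 6.52 and 4.69 CPM in the PBS libraries, lowest in the same 3 libraries as the 37 genes, and was present in libraries where Oas1a and Oas1g were at 0 counts. These genes are closely similar copies, so reads can be shared among them and their separate levels are uncertain. Trex1, a nuclease gene of the clearance list, was listed at 0 counts in all 8 libraries.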
